A study of Mus musculus with 9 samples.

Results

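The KCNE subunits and Kcnq1 were followed across right atria that had lost the nuclear receptor COUP-TFII (Nr2f2), control right atria and control ventricles of the mouse heart. The 6 members, Kcne1, Kcne1l, Kcne2, Kcne3, Kcne4 and Kcnq1, were taken by gene symbol as every probe set assigned to one of them alone, which gave 7 of the 34945 probe sets with a single gene name. Kcne1 had 2 probe sets and each other member had 1. Kcne1 and Kcne2 lie on chromosome 16, Kcne3 and Kcnq1 on chromosome 7, Kcne4 on chromosome 1 and Kcne1l, also written Kcne5, on the X chromosome. The set was chosen on measured values too: the wide spread of Kcne1l between the mutant arrays was known when it was drawn up, as were the differences of Kcne1l and Kcne1 between mutant and control atria. For that reason the values of both genes in comparisons with mutants are a description without a test.

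Each group held 3 arrays, which the labels call biological replicates, of C57BL/6 mice aged 2 months. The mutants carried Myh6-cre, a Cre recombinase driven by the cardiomyocyte promoter of Myh6, together with COUP-TFIIflox/flox. Both control groups carried COUP-TFIIflox/flox and no Cre, so the presence of Cre and the loss of COUP-TFII cannot be told apart. Whether the atria of several animals were pooled is not given in the sources used here. If they share an animal or a preparation, the p-values measure only the spread between these samples.

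Kcnq1 encodes the pore-forming subunit of the channel that carries the slow delayed rectifier current, which helps to end the cardiac action potential. KCNE proteins are small, single-span membrane proteins that do not form a pore themselves and instead change how fast, at which voltage and whether Kcnq1 and other voltage-gated channels open. Kcne1 slows the opening of Kcnq1 and enlarges its current, Kcne3 keeps Kcnq1 open in epithelia, and Kcne4 and Kcne1l reduce its current in expression systems. In adult mouse ventricle the slow delayed rectifier current is known to be small, and other potassium currents do most of the repolarisation.

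The array values were RMA intensities, used on the log2 scale, where a difference of 1 is a doubling. Levels are given per array, and group means with SD and n = 3 arrays. Differences carry the SE of a limma model of all 9 arrays, and a gene was called at an adjusted p under 0.05 over 18193 genes. Each gene was represented by its probe set with the highest mean over all arrays. Probe sets differ in brightness, so levels were not compared between genes. In bulk tissue, fewer cells of a type and less RNA per cell cannot be told apart.

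The targeted gene Nr2f2 stood at 6.62 to 6.82 in the mutant atria, 7.29 to 7.66 in the control atria and 5.34 to 5.96 in the ventricles. Against control atria, atrial muscle genes were lower in the ventricles in 9 of 9 cases and in the mutants in 5 of 9. Ventricular muscle genes were higher in the ventricles in 6 of 8 cases, and in the mutants 5 were higher and 1 lower. Such counts stand beside 17.5% of all genes called in the mutants and 52.8% in the ventricles. The sex-linked transcripts varied within both atrial groups and were uniform in the ventricles. Xist, expressed from the inactive X chromosome, stood at 11.80 to 11.87 in the ventricles, at 12.48, 6.73 and 6.48 in mutant replicates 1, 2 and 3, and at 12.73, 8.55 and 10.91 in control atrium replicates 1, 2 and 3. The Y-linked gene Eif2s3y stood at 3.67 to 3.82 in the ventricles, at 3.90, 10.01 and 10.05 in the mutants, and at 6.35, 9.97 and 9.53 in the control atria. All 3 measured Y-linked genes were lower in every ventricle than in every control atrium. In every comparison of these 2 groups, tissue and sex therefore cannot be told apart. Each control atrium array had both Xist and Eif2s3y above their level on arrays with only the other one. Liver transcripts were also present in the control atria, where the 9 hepatocyte markers summed to an intensity of 3075 to 16985, against 633 to 754 in the mutant atria and 396 to 426 in the ventricles.

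Kcne1l was the member with the widest range, 6.12 on the log2 scale over the 9 arrays. It stood at 10.53, 6.69 and 9.92 in mutant replicates 1, 2 and 3, at 4.61, 4.41 and 4.57 in the control atria, and at 4.76, 4.93 and 4.94 in the ventricles. Every mutant array lay above every control array of either tissue, and 2 of the 3 mutants lay far above the third. In the control atria between 12.2% and 15.6% of all genes gave a lower value on the same array, and in the ventricles between 14.7% and 17.5%. In mutant replicate 1 this share was 88.7% and in mutant replicate 2 it was 41.4%. Differences from levels so low on an array may be understated.

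Kcne1l averaged 9.05 ± 2.06 in mutants (SD, n = 3). Control atria averaged 4.53 ± 0.11 and ventricles 4.88 ± 0.10. The mutants were higher than the control atria by 4.51 ± 0.78, which is 22.9-fold, and higher than the ventricles by 4.17 ± 0.78. Both SEs pool the wide spread of the mutants with the narrow spread of the controls, so they understate the error of these differences. The lowest mutant array lay 2.08 above the highest control atrium and 1.75 above the highest ventricle. Without mutant replicate 2 the difference from control atria was 5.69 ± 0.16, while without mutant replicate 1 it was 3.77 ± 0.72. Leaving out the third mutant gave 4.08 ± 0.85.

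**Figure D1:**
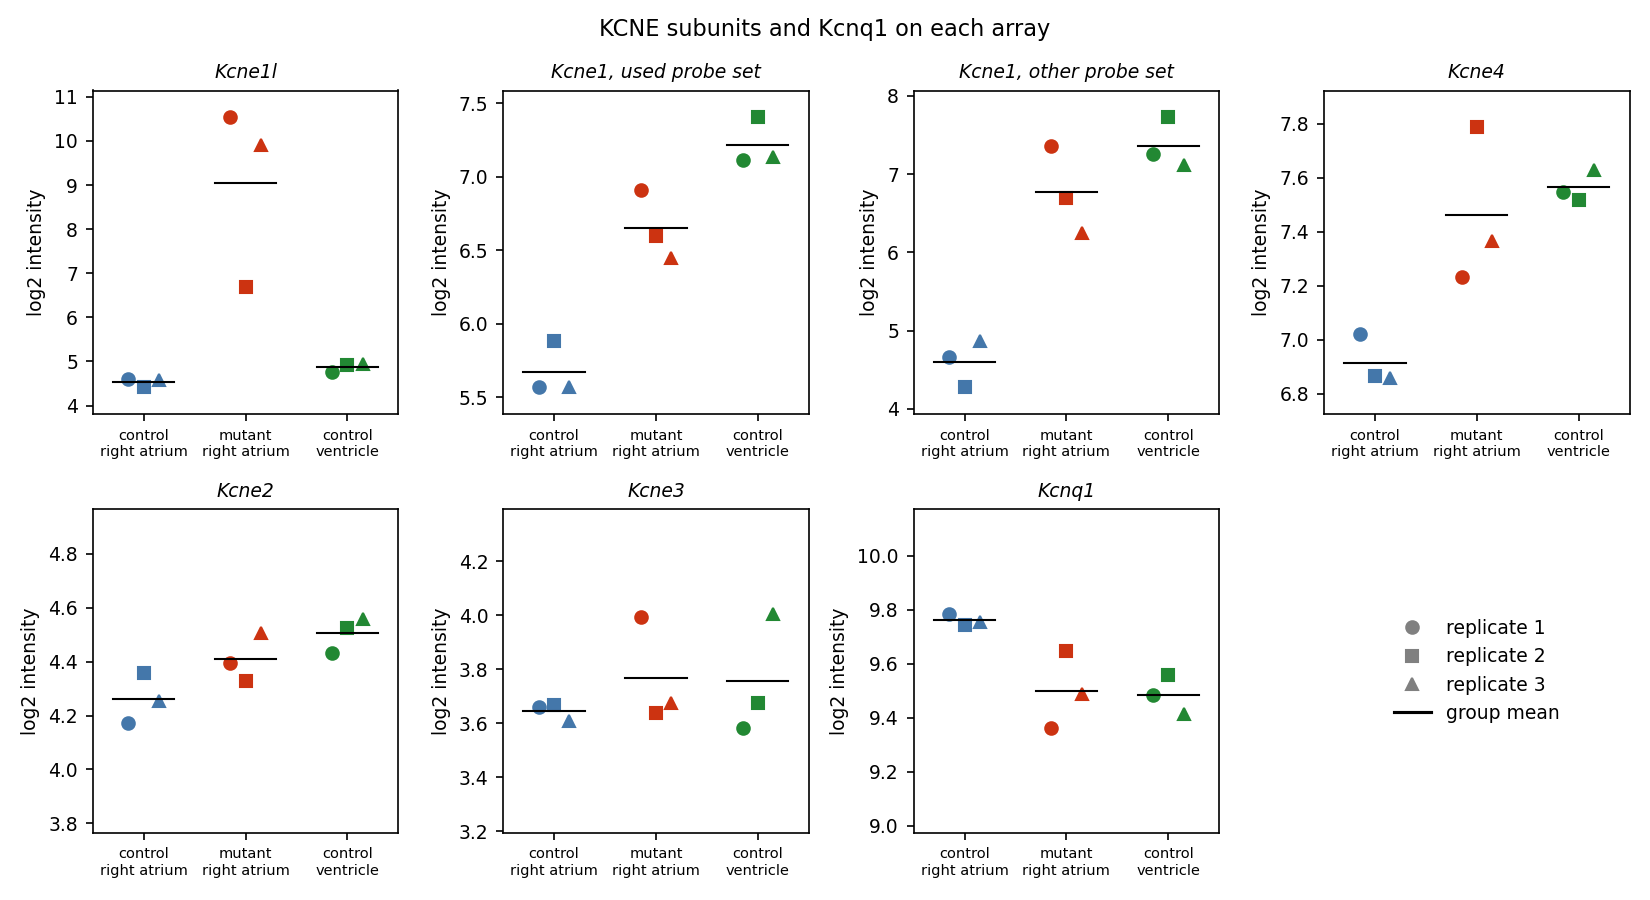
Log2 intensity of the 7 probe sets of the KCNE genes and Kcnq1 on each of the 9 arrays, with 1 point per array, its shape giving the replicate number of the labels, and a bar at each group mean; each panel has its own vertical axis. Kcne1l was high in the mutant atria alone, with replicate 2 at 6.69 far below the other two, while both probe sets of Kcne1 were lowest in control atria.

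Mutant replicate 1 exceeded replicate 2 in Kcne1l 14.3-fold and replicate 3 exceeded replicate 2 9.35-fold. The SD of 2.06 between the mutant arrays was the 8th largest of 18193 genes, where the median gene had 0.084. The 7 genes above it were the sex-linked Eif2s3y, Xist, Uty and Kdm5d, the heat shock genes Hspa1a and Hspa1b, and the galectin gene Lgals3. In the control groups Kcne1l had an SD of 0.11 in the atria and 0.10 in the ventricles, against medians over all genes of 0.096 and 0.10. Mutant replicates 2 and 3 had nearly equal Y-linked transcripts, with Eif2s3y at 10.01 and 10.05, and differed by 3.23 in Kcne1l. The part of sex-linked differences in the spread of this X-linked gene was not tested.

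Among genes whose mutant arrays stood in the same order as for Kcne1l, those with the largest spread were Pttg1, the securin that restrains the separation of sister chromatids (SD 1.81), Zfp874a, a zinc finger gene (1.73), Npy1r, a receptor of neuropeptide Y (1.21), and the orphan nuclear receptor Nr4a3 (1.20). Pttg1 stood at 12.86, 9.61 and 9.86 in the mutants and also varied between the ventricles, at 9.57, 9.73 and 12.70. Npy1r stood at 8.58, 6.32 and 8.21 in the mutants and was higher in all control atria, at 9.28 to 9.58.

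**Figure D2:**
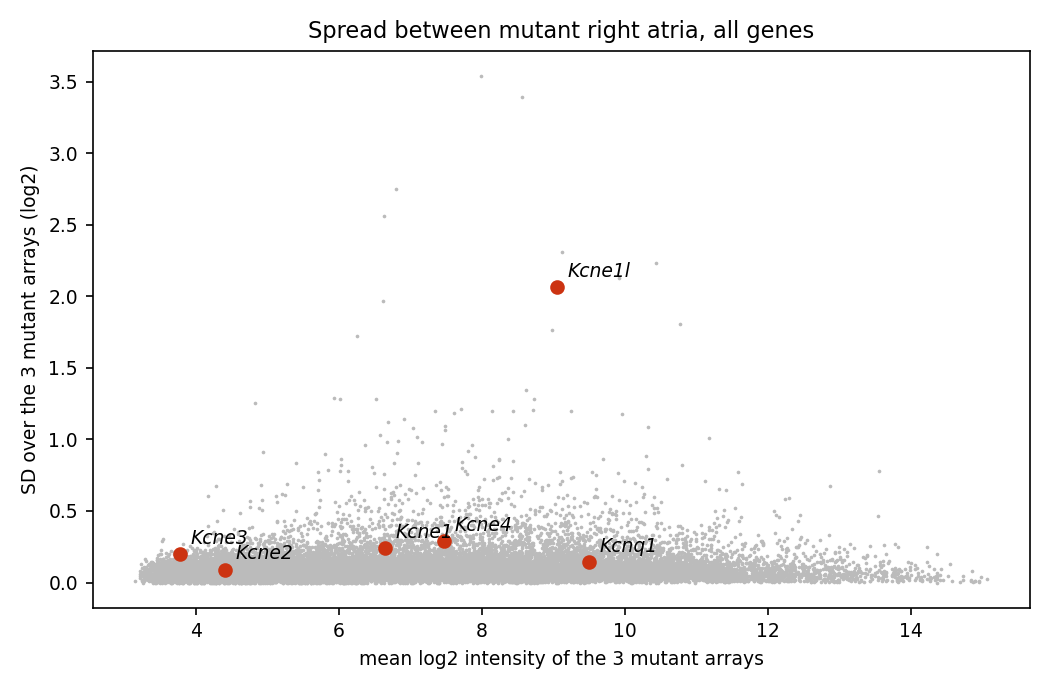
SD over the 3 mutant arrays against their mean log2 intensity for 18193 genes, 1 point per gene, with the 6 members in red and labelled. Kcne1l, at an SD of 2.06, lies far above the other 5 members, whose SD ranged from 0.091 to 0.29.

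Markers of the fast conduction system were higher in mutant than in control atria as a list, as Kcne1l was. Of the 8 measured Purkinje and conduction genes, 5 rose and 2 fell in mutant against control atria. Their intensities summed to 11524 to 12204 in mutants, 2998 to 3386 in control atria and 2848 to 3292 in ventricles. Bright genes weigh most in such a sum, and this list holds Slit2, described below among the genes closest to Kcne1l. Slit2 stood at 12.62, 12.45 and 12.43 in mutant replicates 1, 2 and 3 and at 8.13 to 8.55 in control atria. The mean log2 level of the list weighs its genes equally. It was 9.21 to 9.34 in mutants, 8.10 to 8.20 in control atria and 7.52 to 7.58 in ventricles. In mutant replicates 1, 2 and 3 the sum was 12204, 12101 and 11524, and the mean log2 level was 9.27, 9.21 and 9.34. Of the conduction genes 1 was higher and 6 were lower in ventricles than in control atria. Some other lists had mutant replicate 2 as the lowest or highest of the mutants. The 9 atrial muscle genes summed to 101557, 84858 and 112299 in mutant replicates 1, 2 and 3, lowest in replicate 2 as for Kcne1l. In control atria, where Kcne1l was low, that sum was higher, at 157783 to 164529. The mean log2 level of the macrophage genes was 9.91, 10.47 and 10.29, highest in replicate 2 but with replicate 1 furthest from the other mutants. The part of these cell types in the level and spread of Kcne1l was not tested.

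In the ventricles Kcne1l was 0.35 ± 0.78 above the control atria and did not pass (adjusted p = 0.723), although the arrays did not overlap. The SE holds the spread of the mutants, which enters the pooled variance. In a fit of only the 2 control groups the same difference had an SE of 0.086 and an adjusted p of 0.0124, the lowest of 20 alternatives, which reached up to 0.872. Without mutant replicate 2 in the model of all groups the SE was 0.14 and the adjusted p 0.0735. With the Y-linked genes as a covariate the difference turned to -0.80 ± 0.93 (adjusted p = 0.503).

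The 250 bases before the annotated start of Kcne1l are shown because it had the widest range of the members. RefSeq places them at chrX:142306199-142306448 on the minus strand of GRCm38.p6. The capitals mark a GC box, searched as GGGCGG on both strands, which 32.7% of 32851 promoter windows of this length hold.

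Kcne1l: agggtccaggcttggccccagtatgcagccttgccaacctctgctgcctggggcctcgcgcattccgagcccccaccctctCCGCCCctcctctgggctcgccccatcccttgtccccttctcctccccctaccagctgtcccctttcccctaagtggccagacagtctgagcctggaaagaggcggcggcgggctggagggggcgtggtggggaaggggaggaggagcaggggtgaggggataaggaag

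This stretch was rich in G and C, at 68% against a median of 52.4% over all windows. The nuclear receptor element AGGTCA, to which COUP-TFII can bind, was found on neither strand here, nor in the windows of Kcne2, Kcne3 and Kcne4, and 14.0% of all windows hold it. The letters TATAAA (12.4% of windows), CACGTG (6.02%) and AGATAA (9.99%) were also not in the window of Kcne1l. No match says only that these letters are not in this window. Kcne1 and Kcnq1 had no promoter entry and were not searched.

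The genes closest to Kcne1l in their pattern over the 9 arrays, after each gene was centred on its mean, were Thbs4, Slit2, Drd2 and Fbn2. The likeness was measured as the root mean square difference, which was 0.89 for Thbs4, a secreted matrix protein, and 1.00 for the guidance cue Slit2. It was 1.14 for the dopamine receptor Drd2 and 1.18 for the fibrillin Fbn2. All 4 were high in the mutant atria and low in both control tissues, as for Drd2 at 9.95 ± 0.19, 6.75 ± 0.03 and 6.87 ± 0.14 in mutant atria, control atria and ventricles. Between the mutants their SD was 0.10 to 0.45. In mutant replicate 2 they stood at 11.75, 12.45, 9.99 and 10.06, against 11.75 to 12.43, 12.43 to 12.62, 9.75 to 10.12 and 9.16 to 10.06 over the 3 mutants.

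**Figure D3:**
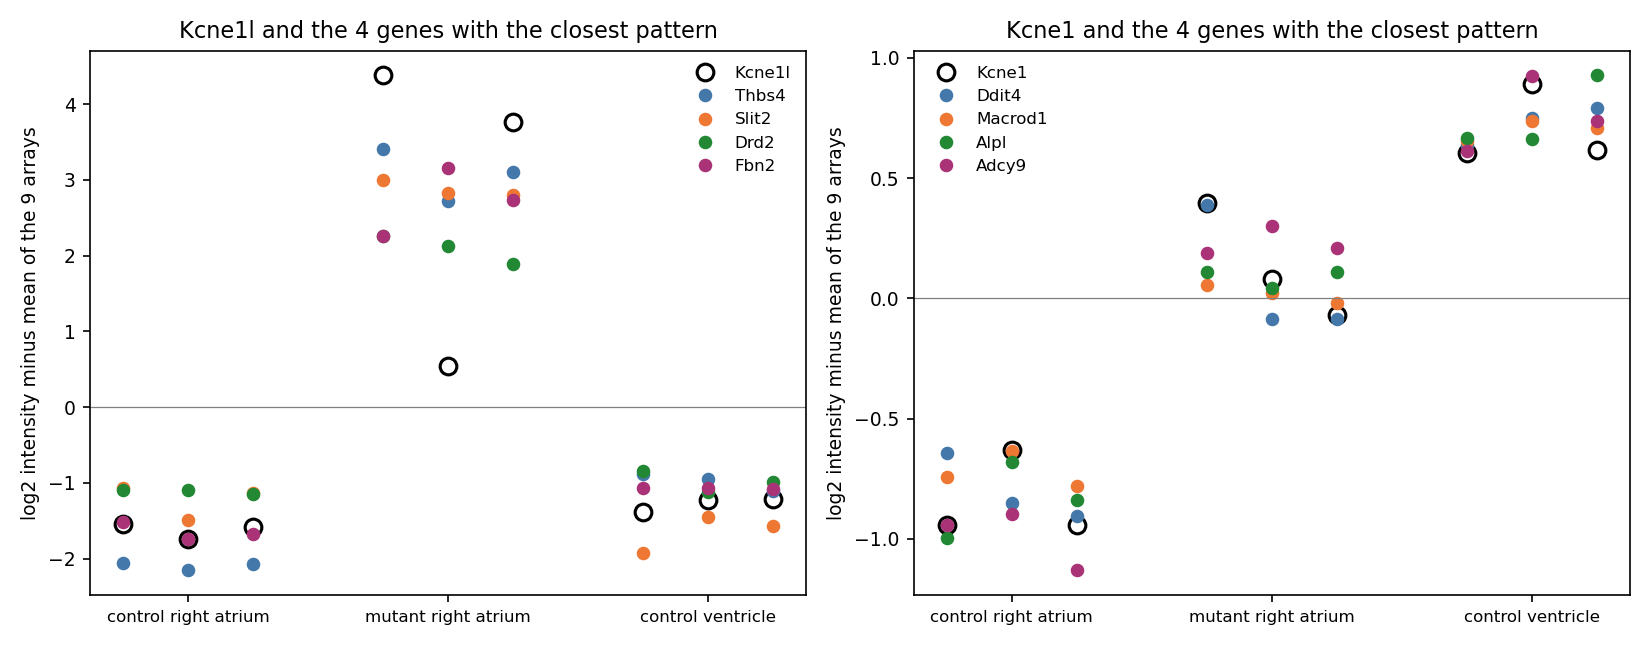
Log2 intensity minus the mean of the 9 arrays for Kcne1l (left) and Kcne1 (right), as open circles, and the 4 genes with the closest pattern to each, as filled points; within a group the arrays stand in the order of replicates 1, 2 and 3. Kcne1l falls below its 4 companions in mutant replicate 2, while Kcne1 and its companions are lowest in control atria and highest in ventricles.

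Kcne1, the classical partner of Kcnq1, was higher in ventricle than in atrium among the controls. Its brighter probe set, used in the tests, stood at 5.57, 5.88 and 5.57 in the control atria, at 7.12, 7.40 and 7.13 in the ventricles, and at 6.91, 6.59 and 6.44 in the mutant atria. The 3 groups did not overlap on this probe set, with the mutants in between. The ventricles were 2.91-fold higher than the control atria (7.22 ± 0.16 against 5.67 ± 0.18), a difference of 1.54 ± 0.14 (adjusted p = 1.84e-05), and higher in 3 of 3 arrays.

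The mutant atria, at 6.65 ± 0.24, were 0.98 ± 0.14 above the control atria and 0.57 ± 0.14 below the ventricles. The second probe set of Kcne1 showed the same directions at a larger size. It stood at 4.67, 4.28 and 4.86 in the control atria, at 7.26, 7.72 and 7.11 in the ventricles, and at 7.36, 6.70 and 6.25 in the mutants. On it the ventricles were 6.79-fold higher than the control atria (2.76 ± 0.27, adjusted p = 2.97e-05 over all probe sets), and the mutants 4.50-fold higher, by 2.17 ± 0.27. Mutants and ventricles overlapped here, with mutant replicate 1 above 2 of the 3 ventricles. Both probe sets placed mutant replicate 1 highest and replicate 3 lowest, an order that differs from that of Kcne1l.

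The genes closest to Kcne1 in pattern were Ddit4, an inhibitor of mTOR signalling (root mean square difference 0.16), Macrod1, an ADP-ribose hydrolase (0.16), the alkaline phosphatase Alpl (0.18) and the adenylyl cyclase Adcy9 (0.18). They too were lowest in control atria, intermediate in mutants and highest in ventricles, as for Adcy9 at 8.14 ± 0.12, 9.36 ± 0.06 and 9.89 ± 0.16. Ventricular muscle markers as a list had the same order of groups as Kcne1, but not every gene did. Myl2, Myl3, Irx4 and Fhl2 had that order. Myh7 was highest in mutants, at 11.96 to 12.24 against 10.57 to 11.64 in ventricles. Lrtm1 stood at 5.65 to 6.05 in mutants and 6.04 to 6.27 in control atria, and Hey2 at 4.51 to 4.91 and 5.06 to 5.40. The intensities of the 8 genes summed to 11713 to 13789 in control atria, 70544 to 78968 in mutants and 85871 to 88982 in ventricles, and their part in the Kcne1 level was not tested. Unlike Kcne1, the Purkinje and conduction markers described above were no higher in ventricles than in control atria as a list, with a median difference of -0.71.

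Of the 6 members, 4 passed between control ventricle and control atrium, 3 higher and 1 lower. Over all genes 52.8% passed in that comparison, 29.2% higher and 23.6% lower, so a call here is common. The members differed by a median of 0.30 and all genes by 0.07. Between mutant and control atria the 4 tested members gave 1 rise and 1 fall, where 17.5% of all genes were called, 7.76% higher and 9.79% lower. Against the ventricles none of the 4 tested members passed in limma, and none had an unadjusted p under 0.05, where 32.7% of all genes were called. With every probe set fitted on its own, 13.9% of probe sets passed in mutant against control atria, 47.2% in ventricle against control atrium and 27.5% in mutant against ventricle.

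Groups without overlap were also common over all genes. The arrays of ventricle and control atrium did not overlap for 5 of the 6 members, 4 higher and 1 lower, where 59.7% of all genes did not overlap, 33.0% higher and 26.7% lower. Mutant and control atria did not overlap for 3 members that were higher and 1 that was lower, against 18.9% of all genes in each direction and 37.8% in all. Kcne1l and Kcne1 are among these 3 and had been known to differ. Mutants and ventricles did not overlap for 1 member that was higher, Kcne1l, and 1 that was lower, Kcne1, where 20.5% of all genes were higher, 26.8% lower and 47.4% either.

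**Figure D4:**
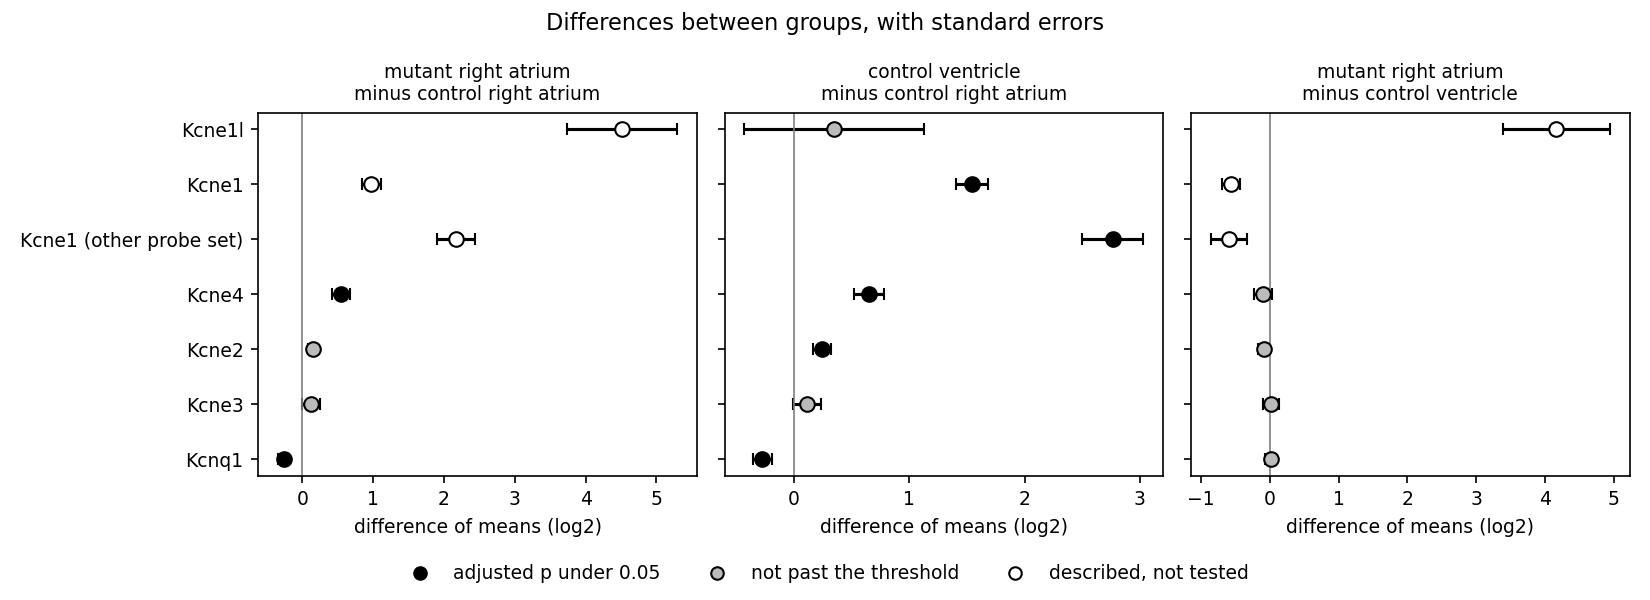
Differences of group means on the log2 scale with SE bars for the 7 probe sets, in 3 panels for the 3 comparisons, each panel with its own horizontal axis. Filled points passed an adjusted p of 0.05, grey points did not, and open points are described without a test. Kcne1 and Kcne4 were higher in ventricle than in control atrium, and Kcne4 was also higher in mutant atrium.

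Kcne4, an inhibitory subunit, rose in the mutant atria and was also higher in the ventricles. It stood at 7.02, 6.87 and 6.86 in the control atria, at 7.23, 7.79 and 7.37 in the mutants, and at 7.55, 7.52 and 7.63 in the ventricles. Every mutant and every ventricle array exceeded every control atrium, and the mutants lay on both sides of the ventricles. The mutants exceeded the control atria 1.46-fold, by 0.55 ± 0.13 (adjusted p = 0.0177), and the ventricles were 1.57-fold higher (0.65 ± 0.13, adjusted p = 0.00231). The pooled SE takes in unequal SDs, of 0.29 in mutants, 0.09 in control atria and 0.06 in ventricles. Without control atrium replicate 2 the mutant difference was 0.52 ± 0.15 and did not pass (adjusted p = 0.0613), and over 21 alternatives the adjusted p ran from 0.00825 to 0.0613.

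Mutants and ventricles differed in Kcne4 by -0.10 ± 0.13 (adjusted p = 0.578). Without mutant replicate 2, the mutant array highest in Kcne4 and lowest in Kcne1l, this difference was -0.26 ± 0.08 and passed (adjusted p = 0.0478, the lowest of 21 alternatives, which reached 0.947). Smooth muscle and pericyte markers moved the same way as Kcne4. Of 11 such genes 6 rose and 1 fell in the mutant atria, and in the ventricles 9 stood higher and 1 lower. Their intensities summed to 13357 to 15020 in control atria, 20837 to 21836 in mutants and 30034 to 34314 in ventricles. As a list, by the sums given above, ventricular muscle markers were also higher in mutants and ventricles than in control atria. Of 9 macrophage genes 5 rose and none fell in the mutants, while in the ventricles none was higher and 3 were lower than in control atria. The mean log2 level of the macrophage genes was 9.91, 10.47 and 10.29 in mutant replicates 1, 2 and 3, and 9.61 to 9.79 in control atria. Their order over the mutant arrays was that of Kcne4, but few orders are possible with 3 arrays. The ventricular muscle genes (9.32, 9.62 and 9.51), fibroblast genes (10.97, 11.11 and 11.01) and sinus node genes (7.15, 7.21 and 7.17) shared it. Other lists did not, such as the smooth muscle and pericyte genes at 9.73, 9.88 and 9.89. The part of these cell types in the Kcne4 differences was not tested.

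The 250 bases before the start of Kcne4 are given because it is the KCNE gene that passed in both tests against control atria. RefSeq places them at chr1:78816661-78816910 on the plus strand of GRCm38.p6. The capitals mark CACGTG, an E box that reads the same on both strands.

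Kcne4: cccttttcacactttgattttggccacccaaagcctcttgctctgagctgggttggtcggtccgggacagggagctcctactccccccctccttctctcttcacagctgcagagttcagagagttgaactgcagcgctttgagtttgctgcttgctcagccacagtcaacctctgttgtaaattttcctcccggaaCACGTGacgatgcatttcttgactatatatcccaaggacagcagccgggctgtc

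At 53.2% G and C this window lay near the median of all windows, in contrast to that of Kcne1l. It held no GC box as searched.

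Kcne2 and Kcne3 gave low values on every array. Kcne2, known as a partner of the Kcnh2 channel, stood at 4.17, 4.36 and 4.25 in the control atria, at 4.39, 4.33 and 4.51 in the mutants, and at 4.43, 4.53 and 4.56 in the ventricles. Between 8.97% and 12.3% of all genes gave a lower value on the same array. The ventricles were 0.24 ± 0.08 above the control atria (adjusted p = 0.0221) and did not overlap with them. It no longer passed when control atrium replicate 1 was left out (0.20, adjusted p = 0.0768), nor without ventricle replicate 2 (0.23, 0.0572) or ventricle replicate 3 (0.22, 0.0662), and over 20 alternatives the adjusted p ran from 0.00222 to 0.3. The mutants differed from the control atria by 0.15 ± 0.08 without passing (adjusted p = 0.202).

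Kcne3 stood at 3.66, 3.67 and 3.61 in the control atria, at 3.99, 3.64 and 3.68 in the mutants, and at 3.58, 3.68 and 4.005 in the ventricles, where 1.32% to 5.93% of all genes gave a lower value. The 3 groups overlapped. The mutants differed from control atria by 0.12 ± 0.12 (adjusted p = 0.516) and the ventricles by 0.11 ± 0.12 (adjusted p = 0.471). No detection call was used here, so whether Kcne3 was above background was not tested.

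Kcnq1 itself differed little between the groups. It stood at 9.79, 9.75 and 9.75 in the control atria, at 9.36, 9.65 and 9.49 in the mutants, and at 9.49, 9.56 and 9.41 in the ventricles. All control atria lay above all other arrays. The ventricles were 1.21-fold lower than the control atria (-0.28 ± 0.08, adjusted p = 0.0166) and the mutants lower by a like amount (-0.26 ± 0.08, adjusted p = 0.0499), at the edge of the threshold. Several marker lists had the same direction, among them atrial muscle, endothelial, mesothelial and epicardial genes, and the hepatocyte genes given above. Atrial muscle intensities summed to 157783 to 164529 in control atria, 84858 to 112299 in mutants and 9607 to 15171 in ventricles. The mean log2 level of the endothelial genes was 10.21 to 10.30, 9.93 to 10.16 and 9.11 to 9.24 in these groups. Of these 10 genes only 1 was called lower in the mutants and 9 did not pass, where 9.79% of all genes were lower. In the ventricles 6 of them were lower and 1 higher, where 23.6% of all genes were lower. The 10 mesothelial and epicardial genes were all lower in the mutants (median -1.62) and in the ventricles (median -2.84), with intensities that summed to 8695 to 10465 in control atria, 3067 to 3587 in mutants and 1101 to 1414 in ventricles. All 9 hepatocyte genes were lower in both as well. Within the control atria their sum was 16985, 10198 and 3075 in replicates 1, 2 and 3, while Kcnq1 stood at 9.79, 9.75 and 9.75. The part of these cells in the Kcnq1 difference was not tested.

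The mutant call of Kcnq1 was lost in 15 of 21 alternatives, with every array left out in turn except mutant replicate 2, and the adjusted p ran from 0.0271 to 0.134. The ventricle call was lost without ventricle replicate 3 (-0.24, adjusted p = 0.0549) and in 4 other alternatives, with a range of 0.00983 to 0.172. Median centring moved the median of all genes by 0.14 in that comparison, and Kcnq1 was then at -0.14 (adjusted p = 0.152). Mutants and ventricles differed by 0.01 ± 0.08 (adjusted p = 0.915). In the mutants the array lowest in Kcne1l, replicate 2, was the highest in both Kcnq1 and Kcne4.

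Channels that KCNE subunits can join were read from a list of pore-forming genes, of which 19 were measured. In mutant against control atria 4 rose and 1 fell, with a median of 0.12 against 0.03 over all genes. In ventricle against control atrium 8 passed as higher and 5 as lower (median 0.22). Over all genes 17.5% were called in the first comparison, 7.76% higher and 9.79% lower. In the second 52.8% were called, 29.2% higher and 23.6% lower. Kcnc2, a Kv3 channel of fast-firing neurons, stood at 8.37 in the control atria and was 6.91-fold lower in the mutants (-2.79 ± 0.13, adjusted p = 1.6e-06). In the ventricles it was 11.4-fold lower (-3.51 ± 0.13, adjusted p = 9.77e-08). Kcna5, which carries an ultrarapid potassium current, rose in the mutants by 0.76 ± 0.19 (adjusted p = 0.0222) and was 4.98-fold higher in the ventricles. The Kcna5 call in the mutants was lost without mutant replicate 2 (0.61, adjusted p = 0.0751) and without control atrium replicate 3 (0.61, adjusted p = 0.0585).

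Kcnh2, the pore of the rapid delayed rectifier, was lower in ventricles by -0.82 ± 0.10 (adjusted p = 0.000147), while the mutants stood at -0.16 ± 0.10 from the control atria (adjusted p = 0.316). Mutants exceeded ventricles in Kcnh2 by 0.67 ± 0.10 (adjusted p = 0.000893). The pacemaker channel gene Hcn2 rose in the mutants by 0.40 ± 0.09 (adjusted p = 0.0158), a call lost without mutant replicate 2 (0.38, adjusted p = 0.0562) and without mutant replicate 3 (0.37, adjusted p = 0.0587). Kcnh1 rose by 0.36 ± 0.09 (adjusted p = 0.0259), a call lost in 5 of the 9 fits that leave out an array, in quantile normalisation and with the replicate block (adjusted p = 0.0509). Kcnq5, a neuronal relative of Kcnq1, was 0.63 ± 0.08 higher in ventricles than in control atria (adjusted p = 0.00022) and 0.60 ± 0.08 lower in mutants than in ventricles (adjusted p = 0.000491). Its values were low, at 4.39 to 4.50 in control atria, 4.41 to 4.53 in mutants and 4.95 to 5.25 in ventricles. All lay under the value below which 25% of genes fell, 5.29 to 5.48 over the arrays.

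Of 17 measured genes for proteins that bind, modify or traffic Kcnq1 and related channels, 4 rose and 6 fell in the mutant atria. In the ventricles 5 were higher and 9 lower. The shares over all genes were 7.76% higher and 9.79% lower in the mutants, and 29.2% and 23.6% in the ventricles. Kcnip2, an auxiliary subunit of Kv4 channels rather than of Kcnq1, rose in the mutants by 0.72 ± 0.12 (adjusted p = 0.00339) and was 3.26-fold higher in the ventricles. Nedd4l, a ubiquitin ligase that lowers Kcnq1 at the membrane, fell by 0.53 ± 0.11 (adjusted p = 0.00975) and was 2.08-fold lower in the ventricles. Cav3, the caveolin of muscle, rose by 0.39 ± 0.06 (adjusted p = 0.00249) and was 1.85-fold higher in the ventricles. All 3 mutant arrays gave the same Cav3 value, 10.0906, a tie that narrows the pooled spread behind this SE. Akap9, the scaffold that brings protein kinase A to Kcnq1, fell by 0.29 ± 0.06 (adjusted p = 0.0099), but with the mean of all its probe sets it was at -0.07 (adjusted p = 0.373). Prkar2b, a regulatory subunit of that kinase, was 3.96-fold lower in ventricles than in control atria (-1.99 ± 0.17, adjusted p = 1.35e-05). Both comparisons share the control atria, so agreement of their directions is no result of its own.

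**Figure D5:**
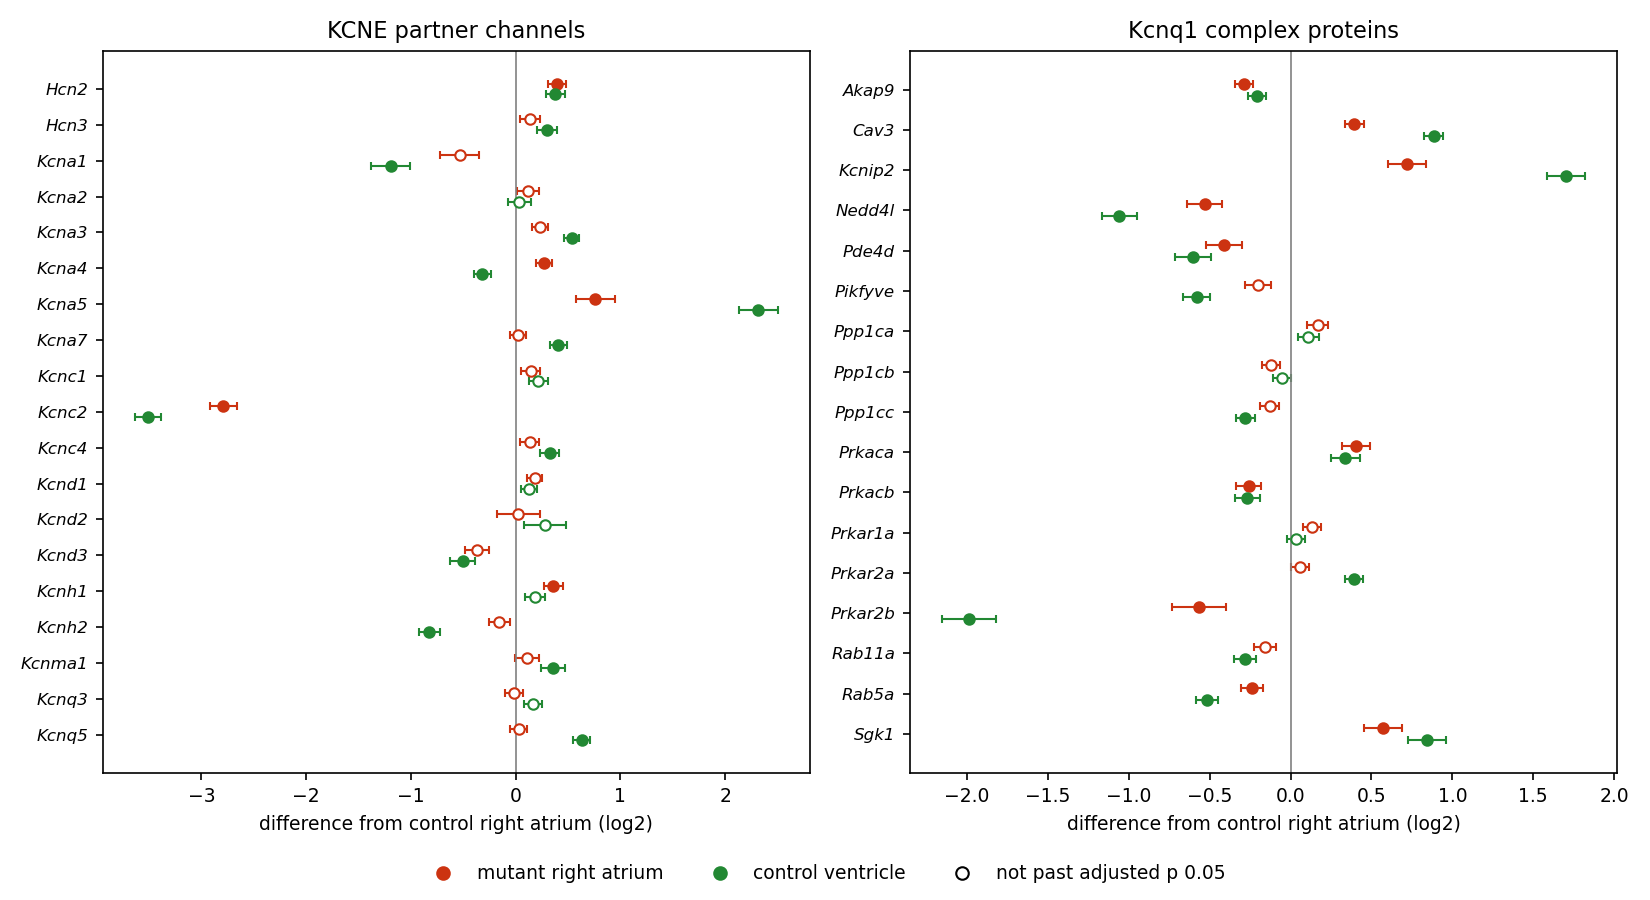
Difference from control right atrium on the log2 scale, with SE, for the 19 measured partner channels (left) and the 17 measured genes of the Kcnq1 complex list (right), in mutant right atrium (red) and control ventricle (green). Open points did not pass an adjusted p of 0.05. Kcnc2 lies far to the left in both, at -2.79 and -3.51, and Kcna5 to the right, at 0.76 and 2.32.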

How the data were processed

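Per the labels, RNA of 3 samples a group (mutant right atrium, control right atrium, control ventricle) was hybridised to Affymetrix mouse arrays. The authors deposited 1 intensity per probe set and array, made with RMA, per the submitters' processing notes (version not given in the sources used here). RMA corrects background, normalises by quantiles and compresses low values. The values are linear, so log2 was taken. Median intensity per array was 80.9 to 83.4. Precision is limited by how few arrays there are.

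Of 45101 probe sets, 64 controls, 932 of several genes and 9160 without a gene name in the platform annotation were left out. Gene identifiers of 34741 of the 34945 used probe sets matched RefSeq, and no symbol changed. For each of 18193 genes the probe set with the highest mean was used. A model with 1 mean per group was fitted with limma 3.58.1 in R 4.3.3 (lmFit, eBayes, 6 residual and 3.48 prior degrees of freedom), and 2-sided p-values were adjusted by Benjamini and Hochberg across them. Figures were drawn with matplotlib 3.10.9.

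The members and lists were chosen with earlier results of these data known. Named genes were all members, up to 4 genes with the smallest p per partner list and comparison, the 4 genes with the closest pattern for members ranging over at least 1 on the log2 scale, the 4 with the largest mutant SD in the array order of Kcne1l, and Nr2f2. Alternatives changed the model (replicate block, robust variance with an intensity trend, array weights, a Y-linked covariate, 2 groups alone), the values (quantile normalisation, median centring, an offset of 32), the features (each probe set separately, the average over probe sets, no genes among the dimmest 40%), the threshold (0.01) or left out each array. The same settings for the partner lists, and the other probe set of Kcne1, were chosen after seeing the data. The fit was tested on simulated data. Some listed partner and marker genes are not analysed here.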

Additional observations from a re-analysis of the deposited data

How the results depend on the processing

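Every called difference of a member kept its sign in all alternatives run. The 2 members called between mutant and control atria became 1 with the replicate block, quantile normalisation, median centring, every probe set on its own, only the 2 groups compared or the Y-linked covariate, 0 at an adjusted p of 0.01, and 0 to 2 without an array. Kcnq1 accounted for all but the last 2: it was -0.26 with the block (adjusted p = 0.0644), -0.22 with quantile normalisation, -0.23 with median centring, -0.25 with the covariate and -0.34 to -0.19 without an array. At an adjusted p of 0.01, Kcnq1 (-0.26) and Kcne4 (0.55) were not called. Kcne4 ranged from 0.39 to 0.66 without an array. The Kcne1 difference was 0.67 with an offset of 32, 1.57 with the mean of its probe sets and 2.17 on its other probe set. Between ventricle and control atrium the 4 called members became 2 with quantile normalisation, at an adjusted p of 0.01 and without the dimmest 40% of genes, where only 2 members were tested, and 2 to 4 without an array. Kcne2 was 0.10 with quantile normalisation, 0.10 with the offset, 0.24 at the strict threshold and 0.20 to 0.29 without an array. Kcnq1 was -0.18 with quantile normalisation, -0.14 with median centring, -0.19 with the covariate, -0.28 at the strict threshold and -0.31 to -0.24 without an array. Kcne1l passed at 0.35 with only the 2 groups compared. Between mutant and ventricle 0 to 1 members were called without an array, with Kcne4 at -0.2638 to 0.0139. Differences that were not called turned sign in 14 fits. Of these, Kcne1l between ventricle and control atrium was -0.80 with the covariate, and Kcne3 there was -0.0647 with the covariate and -0.0159 to 0.20 without an array. Between mutant and ventricle Kcne3 was -0.0861 with median centring, -0.0299 with array weights and -0.0979 to 0.14 without an array, and Kcnq1 was -0.0449 with quantile normalisation, -0.0874 with median centring, -0.0692 with the covariate and -0.0607 to 0.0825 without an array. The partner genes called in mutant against control atria, 15 in all, became 5 at the strict threshold and 7 to 13 without an array. Apart from losses whose values or construction are given, the cause was not tested. The replicate numbers do not pair the samples: deviations from group means correlated at -0.10 to 0.12 between arrays of the same number and at -0.16 to 0.15 between others, and an array was closest to its own number in 8 of 18 comparisons with another group. The block lost the Kcnq1 and Kcnh1 calls and changed no other member's call. Low levels of Kcne2, Kcne3, Kcne1l in controls and the second probe set of Kcne1 in control atria limit what differences could be seen.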
